A study of Mus musculus with 12 samples.

Results

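The insulin-like growth factor (IGF) system was followed through its 2 ligands (Igf1 and Igf2), 2 receptors (Igf1r and Igf2r) and 6 binding proteins (Igfbp2 to Igfbp7) in laser-captured spinal cord white matter. The 10 genes were taken by symbol out of 46078 genes counted, and all 10 were among the 15866 genes that passed the filter on low counts and were tested. Igf2 was selected on its CPM values, because its lesion response differed between ages, so its values are a description with no test. Tests are given for the other 9 genes, which were chosen by name. All mice were C57Bl6. Naïve mice had no lesion, and injured mice received lysolecithin, a detergent-like lipid that strips myelin, in the ventrolateral white matter 72 h before the tissue was taken. Young mice were 6 weeks and middle-aged mice 8 months old by the study's methods, and no age in numbers stands in the labels. Each age was sampled naïve and injured, which gave 4 groups of 3 libraries. Each library pooled RNA from 5 mice, so a replicate here is a pool, and the spread between the mice of a pool was not measured.

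IGF-I and IGF-II are small secreted hormones that act mainly through the IGF-I receptor, a tyrosine kinase which signals through insulin receptor substrates, PI3K and Akt to growth, survival and protein synthesis. The IGF-II receptor, also the mannose 6-phosphate receptor, lacks a kinase, carries IGF-II to lysosomes and sorts lysosomal enzymes. Binding proteins hold the ligands in the extracellular space, and proteases release them. In the nervous system IGF-I is known as a survival and myelination factor for oligodendrocytes, activated microglia and macrophages are among its sources, and IGF-II comes largely from the meninges and vessels.

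Igf2 has several alternative start sites, so the regions around them are shown beside those of Igf1 and Igfbp3, the ligand and the binding protein with the largest injury response. Each line is the RefSeq window on GRCm38.p6 from 250 bases before to 50 bases after an annotated start, written 5′ to 3′ on the strand of the gene, and capitals mark matches to the GC box GGGCGG on either strand.
Igf2 start 1 (chr7:142666767-142667066, minus strand): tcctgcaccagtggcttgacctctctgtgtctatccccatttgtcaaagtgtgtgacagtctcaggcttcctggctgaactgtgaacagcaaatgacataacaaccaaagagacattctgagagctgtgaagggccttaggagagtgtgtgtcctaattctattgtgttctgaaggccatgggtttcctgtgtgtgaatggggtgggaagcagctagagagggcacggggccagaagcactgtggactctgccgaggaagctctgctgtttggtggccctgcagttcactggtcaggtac
Igf2 start 2 (chr7:142661222-142661521, minus strand): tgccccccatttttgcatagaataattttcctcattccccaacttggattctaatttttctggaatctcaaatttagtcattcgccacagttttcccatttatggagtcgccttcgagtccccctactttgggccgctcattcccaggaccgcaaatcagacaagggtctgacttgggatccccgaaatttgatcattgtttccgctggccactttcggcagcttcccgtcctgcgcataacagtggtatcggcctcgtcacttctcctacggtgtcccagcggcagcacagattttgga
Igf2 start 3 (chr7:142658755-142659054, minus strand): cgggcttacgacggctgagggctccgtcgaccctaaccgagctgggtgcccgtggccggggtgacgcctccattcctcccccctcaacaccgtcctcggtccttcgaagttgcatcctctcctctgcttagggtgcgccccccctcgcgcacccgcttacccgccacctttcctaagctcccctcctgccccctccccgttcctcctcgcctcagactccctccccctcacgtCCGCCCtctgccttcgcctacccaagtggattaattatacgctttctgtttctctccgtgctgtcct
Igf2 start 4 (chr7:142657447-142657746, minus strand): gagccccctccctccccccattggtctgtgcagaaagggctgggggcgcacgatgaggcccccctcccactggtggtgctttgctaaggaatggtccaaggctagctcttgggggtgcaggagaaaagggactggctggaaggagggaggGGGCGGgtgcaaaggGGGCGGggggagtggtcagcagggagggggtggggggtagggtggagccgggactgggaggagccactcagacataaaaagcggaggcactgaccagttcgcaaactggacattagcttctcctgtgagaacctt
Igf1 (chr10:87860861-87861160, plus strand): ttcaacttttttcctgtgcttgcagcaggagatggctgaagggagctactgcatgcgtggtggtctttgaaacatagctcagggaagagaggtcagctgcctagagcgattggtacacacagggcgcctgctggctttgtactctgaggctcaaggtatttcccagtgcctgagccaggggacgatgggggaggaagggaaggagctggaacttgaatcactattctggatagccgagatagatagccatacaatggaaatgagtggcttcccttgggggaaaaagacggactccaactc
Igfbp3 (chr11:7213874-7214173, minus strand): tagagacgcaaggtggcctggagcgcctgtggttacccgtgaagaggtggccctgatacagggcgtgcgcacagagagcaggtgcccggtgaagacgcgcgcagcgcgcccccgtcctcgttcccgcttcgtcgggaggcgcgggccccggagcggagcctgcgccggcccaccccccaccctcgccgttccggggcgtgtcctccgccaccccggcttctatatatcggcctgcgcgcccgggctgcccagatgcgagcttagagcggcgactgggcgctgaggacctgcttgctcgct
The 10 genes had 14 such windows. The GC box was found in 6 of the 14, against 35.7% of all 32851 mouse windows of this length, and it was in starts 3 and 4 of Igf2 but not in starts 1 and 2. Other motifs were searched on both strands, namely the TATA box TATAAA (2 of 14 windows, 13.6% of all), the AP-1 motif TGACTCA (1 of 14, in the second window of Igfbp2, 5.2% of all) and the STAT motif TTCNNNGAA (0 of 14, 8.3% of all). A match is a description of the letters and not of binding. The counts are per gene, so which Igf2 start was used was not measured.

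Libraries held 9834447 to 12807437 counts. Levels are given as CPM, the count of a gene relative to the TMM-scaled size of its library, and 3 counts, taken as the floor of detection, corresponded to 0.22 to 0.323 CPM. Markers of oligodendrocytes such as Mbp (19390.2 to 31602.9 CPM in naïve pools) and of astrocytes such as Gfap (4954.3 to 6630.2 CPM) were abundant in this white matter. The 6 oligodendrocyte markers summed to 86699.5 to 101953 CPM in young naïve, 53009.2 to 60301.3 CPM in middle-aged naïve, 18251.5 to 20256.2 CPM in young injured and 7930.1 to 12447 CPM in middle-aged injured pools, so that the ages did not overlap. Snap25 and the other neuronal markers summed to 868 to 2367.3 CPM in naïve pools. Replicate 2 of the middle-aged naïve group had the highest level in its group for 7 of the 10 IGF genes, and replicate 1 of the young injured group for 6 of 10. These are the 2 pools called apart from the rest of their groups. Where leaving out either pool ended a call or reversed a sign, this is stated or the range over single pools left out is given.

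The first question was how the IGF genes responded to demyelination at each age. In young mice 6 of the 9 tested genes rose with injury and 0 fell (edgeR, adjusted p under 0.05), where 54.6% of all genes tested were called, 28.3% higher and 26.3% lower. With library totals alone as the scaling, 62.4% of all calls in young mice were higher against 51.8% here, and the median of all genes shifted by 0.2 (by 0.11 in middle-aged mice). The 6 were Igf1, Igf2r, Igfbp2, Igfbp3, Igfbp6 and Igfbp7, and the median log2 fold change over the 9 genes was 1.79 (median of all genes tested 0.000542). No tested gene of the 9 fell at an unadjusted p under 0.05 (0 genes), and DESeq2 also called 0 lower and called 5 higher, giving no adjusted p for Igfbp6. In middle-aged mice 5 of 9 rose, Igf1, Igf2r, Igfbp2, Igfbp3 and Igfbp7, and 2 fell, Igf1r and Igfbp4, against 29.2% and 29.3% of all genes (58.5% in either direction). The median over the 9 genes was 1.19 (all genes −0.0322). The 5 genes that rose at both ages also had injured pools that all lay above the naïve pools, a separation seen upward for 35.0% and downward for 32.2% of all genes in young mice, and for 31.5% and 29.7% in middle-aged mice.

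**Figure D1:**
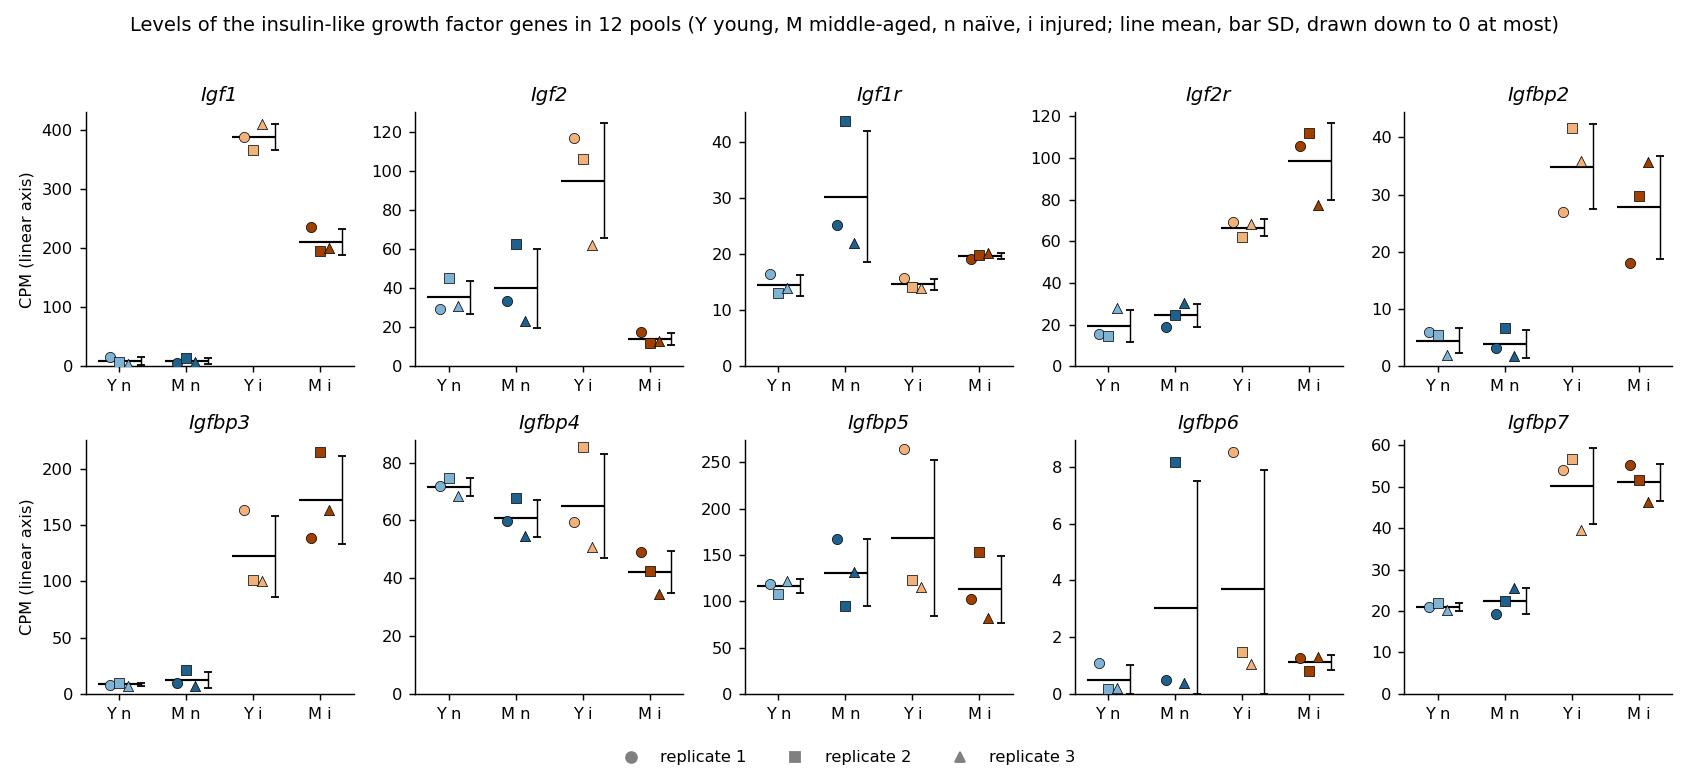
Level of each of the 10 IGF genes (CPM, linear axes that start at 0) in the 12 pools; points are pools, marked by replicate number, horizontal lines are group means and bars are 1 SD (n = 3). Igf1 goes from 3.55 to 16.4 CPM in the naïve pools to 196 to 410 CPM in the injured pools, and Igf2 is highest in the young injured pools (61.8 to 117 CPM) and lowest in the middle-aged injured pools (12.1 to 17.8 CPM).

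Igf1 (ENSMUSG00000020053, chromosome 10, 87858265 to 87937042, plus strand) had the largest rise of the 9 tested genes. In replicates 1, 2 and 3 it was at 16.4, 7.52 and 3.55 CPM in young naïve pools and at 388, 367 and 410 CPM in young injured pools. In middle-aged mice replicates 1, 2 and 3 were at 5.47, 14.3 and 7.36 CPM when naïve and at 237, 196 and 201 CPM when injured. All injured pools were far above all naïve pools, and the naïve groups overlapped. The group mean was 42.4-fold higher with injury in young mice (log2 fold change 5.39, SE 0.42, edgeR adjusted p = 8.56e-08) and 23.4-fold higher in middle-aged mice (4.56, SE 0.40, adjusted p = 2.91e-07). Without the highest young naïve pool, replicate 1, the young change was 6.11. The 7 markers of microglia and macrophages, including Aif1, Csf1r and Cd68, rose at both ages in 7 of 7 cases, with none at 0. They summed to 86.5 to 199 CPM in naïve, 1535.8 to 1571.7 CPM in young injured and 1581.6 to 2294.6 CPM in middle-aged injured pools. Those of recruited monocytes (Ly6c2, Ccr2, Plac8 and Chil3) rose in 4 of 4 cases at both ages, with Ccr2, Plac8 and Chil3 at 0 in every young naïve pool. Their sum was 0.0906 to 1.54 CPM in naïve, 73.9 to 113 CPM in young injured and 163 to 206 CPM in middle-aged injured pools. The 4 markers of homeostatic microglia did not move together. In young mice 2 were higher (Tmem119 and Cx3cr1) and 1 lower (Sall1), and in middle-aged mice 1 was higher (Cx3cr1) and 1 lower (Sall1). They summed to 139 to 316 CPM in naïve, 308 to 355 CPM in young injured and 227 to 284 CPM in middle-aged injured pools. Beside these marker lists, 28.3% of all genes rose and 26.3% fell in young mice, and 29.2% rose and 29.3% fell in middle-aged mice. The macrophage and monocyte sums were higher in every middle-aged injured pool than in every young injured pool, whereas Igf1 and the homeostatic sum were lower. The part of these cells in the rise of Igf1 was not tested, and in bulk tissue more cells of a type and more RNA per cell cannot be told apart. In the young naïve pools Igf1 differed widely, and the summed neuronal markers (2367.3, 1596.8 and 868 CPM in replicates 1, 2 and 3) had the same order. The reverse order was seen in the sums of microglia and macrophages (86.5, 86.8 and 122 CPM) and of homeostatic microglia (139, 167 and 178 CPM). It was also seen in those of oligodendrocytes (86699.5, 95896.1 and 101953 CPM) and of oligodendrocyte progenitors (336, 342 and 388 CPM). The sums of astrocytes, recruited monocytes, fibroblasts, endothelial cells, mural cells and Schwann cells had neither order. An order of 3 pools is easily matched or reversed by accident. The part of any of these cells in the spread of Igf1 was not tested.

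Igf2 (ENSMUSG00000048583, chromosome 7, 142650766 to 142666816, minus strand), an imprinted ligand expressed from the paternal copy in most tissues, had opposite responses. Which copy was expressed in these pools was not measured. Young naïve pools were at 29.5, 45.1 and 31.1 CPM and young injured pools at 117, 106 and 61.8 CPM. Middle-aged naïve pools were at 33.5, 62.5 and 23.4 CPM and middle-aged injured pools at 17.8, 12.1 and 12.8 CPM. Every young injured pool was above every young naïve pool and every middle-aged injured pool was below every middle-aged naïve pool. The highest middle-aged naïve pool, replicate 2, lay just above the lowest young injured pool. The mean was 2.69-fold higher with injury in young mice (log2 fold change 1.43, SE 0.32) and 2.80-fold lower in middle-aged mice (−1.48, SE 0.33). Among injured mice it was 6.68-fold higher in the young (95 ± 29.3 against 14.2 ± 3.08 CPM, SD, n = 3), whereas the naïve groups differed by less than their spread (35.2 ± 8.61 in young and 39.8 ± 20.3 CPM in middle-aged mice). The gap between the 2 responses was −2.91 on the log2 scale (SE 0.46), and −2.25 without the 2 pools that stood apart. With single pools left out, the young change ranged from 1.25 to 1.66 and the middle-aged change from −1.75 to −0.99. The values of Igf2 chose the gene, and no test is given for them.

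The levels of markers of fibroblasts of the meninges and vessels are given beside Igf2. Their sum over 10 genes was 75.3 to 95.5 CPM in young naïve, 80.2 to 131 CPM in middle-aged naïve, 942 to 1506.4 CPM in young injured and 425 to 841 CPM in middle-aged injured pools, with none of the 10 at 0. With injury 10 of 10 rose in young and 6 of 10 in middle-aged mice (28.3% and 29.2% of all genes). Between the injured groups 3 of 10 were lower in middle-aged mice (0.908% of all genes), Col1a1 and Col1a2, which encode the chains of type I collagen, and Fmod, which encodes the collagen-binding fibromodulin. Col1a1 was at 56.3 to 98.8 CPM in young injured pools and at 10.3 to 30.1 CPM in middle-aged injured pools. In middle-aged mice the sum was higher in every injured pool than in every naïve pool, but the direction was not shared by every marker. Slc6a13, which encodes a transporter of the meninges and was singled out after its values were seen, was at 0.364 to 1.45 CPM in young naïve and 0.979 to 6.02 CPM in young injured pools (log2 fold change 2.08, SE 0.68, edgeR adjusted p = 0.0176). In middle-aged mice it was at 2.08 to 5.14 CPM when naïve and 0.799 to 1.91 CPM when injured, without overlap (−1.19, SE 0.64, adjusted p = 0.123). Ogn, which encodes osteoglycin, also rose in young mice (2.71, SE 0.66, adjusted p = 0.00298) and did not pass in middle-aged mice (−0.31, SE 0.66, adjusted p = 0.711). Other markers of the list were far higher in injured middle-aged pools. Dcn was at 13 to 24.3 CPM in middle-aged naïve and 90.9 to 155 CPM in middle-aged injured pools, and Lum at 1.6 to 7.2 and 65.1 to 121 CPM. The part of these cells in the Igf2 values was not tested.

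**Figure D2:**
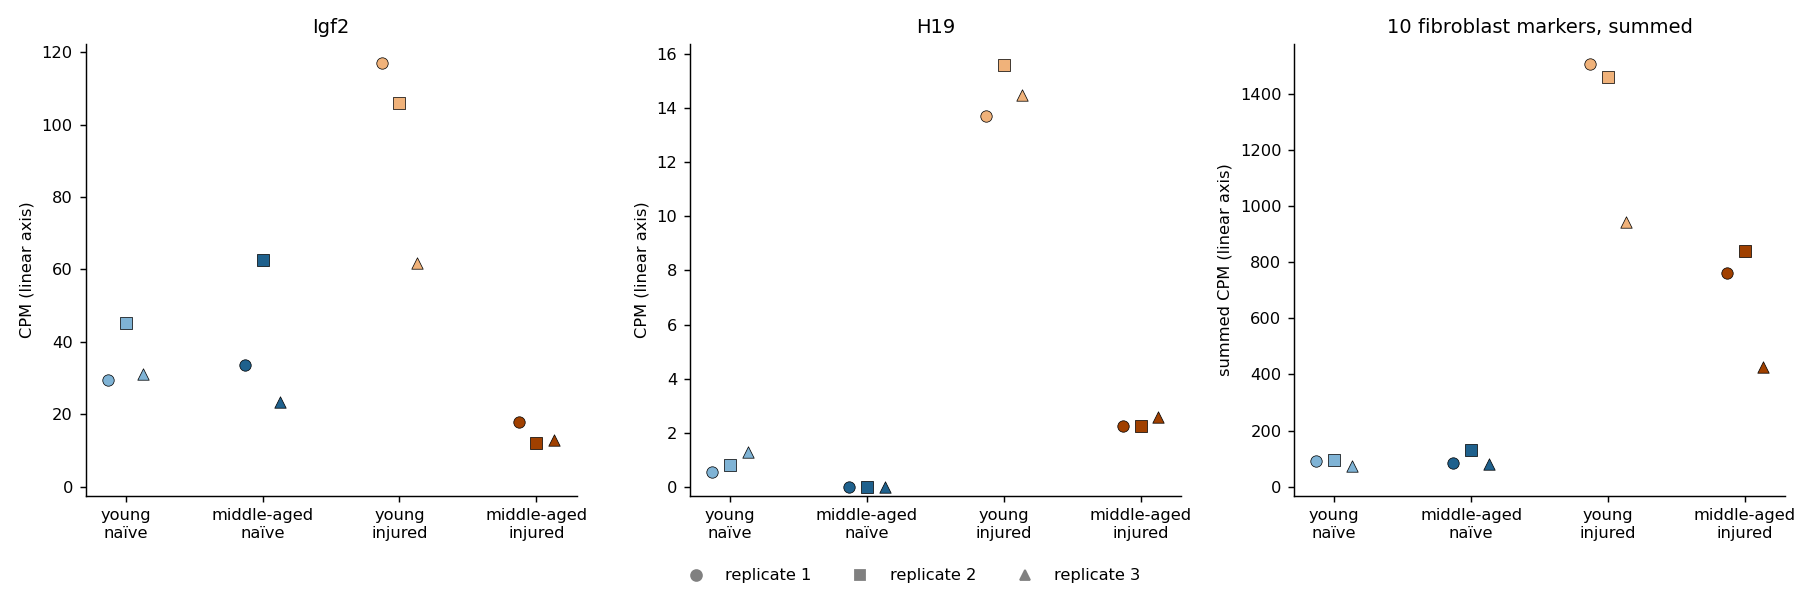
Levels per pool of Igf2, of the imprinted gene H19 and of 10 fibroblast markers summed (CPM, linear axes; points are pools, marked by replicate number). H19 is at 0 in the 3 middle-aged naïve pools and at 13.7 to 15.6 CPM in the young injured pools, and the fibroblast sum is 425 CPM or more in every injured pool.

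The balance of the ligands was described per kilobase of exon. In naïve pools the Igf1 level was 0.066 to 0.321 times that of Igf2 in young and 0.0944 to 0.181 times in middle-aged mice. In young injured pools it was 1.91, 2.01 and 3.83 times that of Igf2, and in middle-aged injured pools 7.71, 9.35 and 9.09 times. Igf2 was thus the more abundant ligand transcript in every naïve pool and Igf1 in every injured pool. The sum of both ligands was 4.84 to 12.4 CPM per kilobase in naïve pools, 52.2 to 59.6 in young injured and 21.9 to 27 in middle-aged injured pools. Igf2 enters each of these ratios, so they carry no test.

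The receptor that clears IGF-II responded to injury at both ages. Igf2r (ENSMUSG00000023830, chromosome 17, 12682406 to 12769664, minus strand) was at 15.5, 14.5 and 28.1 CPM in young naïve and 69.3, 62.0 and 68.5 CPM in young injured pools. It was at 19.1, 24.7 and 30.2 CPM in middle-aged naïve and 106, 112 and 77.4 CPM in middle-aged injured pools. It rose 3.44-fold in young (log2 fold change 1.79, SE 0.24, edgeR adjusted p = 2.03e-05) and 3.99-fold in middle-aged mice (1.99, SE 0.24, adjusted p = 5.74e-06). The injured groups did not overlap, with the middle-aged above the young, as for 11.1% of all genes. This age difference was not called (log2 difference 0.56, SE 0.23, edgeR adjusted p = 0.379). Both injured groups lay above both naïve groups.

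Igf1r (ENSMUSG00000005533, chromosome 7, 67952827 to 68233668, plus strand), the signalling receptor, was at 13 to 43.7 CPM. It was at 16.5, 13 and 13.9 CPM in young naïve, 15.7, 14.1 and 13.9 CPM in young injured, 25.1, 43.7 and 21.9 CPM in middle-aged naïve and 19.1, 19.8 and 20.1 CPM in middle-aged injured pools. Both middle-aged groups lay above both young groups without overlap, and the young groups overlapped. Between the injured groups the age difference was not called (log2 difference 0.43, SE 0.22, edgeR adjusted p = 0.612). The injury effect in the young was 0.01 on the log2 scale (SE 0.23, edgeR adjusted p = 0.965), and its sign changed with upper-quartile scaling and with single pools left out. In middle-aged mice Igf1r fell by 0.62 on the log2 scale (SE 0.22, adjusted p = 0.0278), but without the highest naïve pool, replicate 2, the fall was 0.25 and did not pass (adjusted p = 0.178). Leaving out injured replicate 1 (adjusted p = 0.0796), 2 (0.0640) or 3 (0.0619), fitting only the pools compared (0.0723) and scaling by library totals alone (0.0581) also ended this call.

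Of the binding proteins, Igfbp3, the main carrier of circulating IGF, rose most. It was at 7.93, 10.1 and 7.20 CPM in young naïve and 163, 101 and 100 CPM in young injured pools, and at 9.98, 20.8 and 7.44 CPM in middle-aged naïve and 138, 215 and 163 CPM in middle-aged injured pools. The rise was 14.5-fold in young (log2 fold change 3.85, SE 0.34, edgeR adjusted p = 3.17e-07) and 13.5-fold in middle-aged mice (3.77, SE 0.33, adjusted p = 2.68e-07). No naïve pool reached the lowest injured pool, and the injured groups overlapped. The gene lies on chromosome 11 (7206086 to 7213923, minus strand; ENSMUSG00000020427), 3539 bases from Igfbp1, which had at most 1 count in any pool.

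Igfbp2, a binding protein prominent in the developing brain, was at 6.01, 5.44 and 2.04 CPM in young naïve and 26.9, 41.7 and 35.9 CPM in young injured pools. In middle-aged mice it was at 3.26, 6.61 and 1.84 CPM when naïve and 18.0, 29.8 and 35.7 CPM when injured. It rose 7.75-fold (log2 fold change 2.94, SE 0.42, edgeR adjusted p = 4.07e-05) and 7.13-fold (2.86, SE 0.43, adjusted p = 5.24e-05; 3.47 without middle-aged naïve replicate 2). Igfbp7, which binds IGF weakly and is a matrix protein of vessels, went from 20.9, 22.0 and 20.2 CPM to 54.0, 56.7 and 39.6 CPM in young mice and from 19.3, 22.5 and 25.5 CPM to 55.3, 51.7 and 46.4 CPM in middle-aged mice. These were rises of 2.38-fold (log2 fold change 1.25, SE 0.16, adjusted p = 1.49e-05) and 2.28-fold (1.19, SE 0.16, adjusted p = 2.09e-05). Injured pools of both genes lay above all naïve pools, and the ages overlapped in each condition. Igfbp2 lies on chromosome 1 (72824503 to 72852474, plus strand; ENSMUSG00000039323) and Igfbp7 on chromosome 5 (77349240 to 77408041, minus strand; ENSMUSG00000036256).

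Igfbp5 lies 5457 bases from Igfbp2 on chromosome 1 (72857932 to 72874884, minus strand; ENSMUSG00000026185). It was at 119, 108 and 122 CPM in young naïve, 167, 94.6 and 132 CPM in middle-aged naïve, 265, 123 and 115 CPM in young injured and 103, 153 and 82.2 CPM in middle-aged injured pools. The groups overlapped, and neither injury effect passed in edgeR (log2 fold change 0.52, SE 0.30, adjusted p = 0.156 for the young, then −0.22, SE 0.30, adjusted p = 0.544 for the middle-aged), although with no filter on low counts the young change of 0.53 did (adjusted p = 0.0219). The highest value was in young injured replicate 1, and without this pool the young change was 0.03 (adjusted p = 0.93).

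Igfbp4 (ENSMUSG00000017493, chromosome 11, 99041244 to 99054392, plus strand), an inhibitory binding protein, was at 71.9, 74.6 and 68.3 CPM in young naïve and 59.4, 85.3 and 50.7 CPM in young injured pools, which overlapped. In middle-aged mice it went from 59.9, 67.6 and 54.7 CPM to 49.0, 42.6 and 34.5 CPM, without overlap. It fell by 0.53 on the log2 scale in middle-aged mice (SE 0.18, edgeR adjusted p = 0.0221), a call that ended without naïve replicate 2 (adjusted p = 0.0602), without injured replicate 3 (0.0998) and with library totals alone (0.0572). For the young the change was −0.14 (SE 0.18, adjusted p = 0.549), or 0.06 with library totals alone.

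Igfbp6 (ENSMUSG00000023046, chromosome 15, 102144362 to 102149511, plus strand), which prefers IGF-II, was rare. Its counts were 12, 2 and 2 in young naïve, 5, 78 and 5 in middle-aged naïve, 116, 19 and 14 in young injured and 15, 10 and 15 in middle-aged injured pools. A single pool held most of the counts in each of 3 groups, replicate 1 of young naïve, replicate 2 of middle-aged naïve and replicate 1 of young injured pools, and the young groups overlapped in CPM. The rise in young mice (log2 fold change 2.84, SE 1.14, edgeR adjusted p = 0.0482) became 1.31 without young injured replicate 1 (adjusted p = 0.377) and 4.16 without young naïve replicate 1 (0.039). The call also ended without young naïve replicate 2 (adjusted p = 0.145) or 3 (0.131) and without any 1 of the middle-aged injured pools (0.0602 to 0.0606). The middle-aged change of −1.41 (SE 1.05, adjusted p = 0.264) became 1.33 without middle-aged naïve replicate 2. In young injured replicate 1 the fibroblast markers summed to 1506.4 CPM against 1461.9 and 942 CPM in the other young injured pools, and in middle-aged naïve replicate 2 to 131 CPM against 84.5 and 80.2 CPM. A set of 3 Schwann cell markers summed to 3.38 CPM in young injured replicate 1 against 1.24 and 0.828 CPM, and to 3.78 CPM in middle-aged naïve replicate 2 against 2.02 and 1.28 CPM. In young naïve replicate 1 neither sum was the highest of its group. There the fibroblast markers summed to 92.3 CPM against 95.5 and 75.3 CPM, and the 3 Schwann cell markers to 1.55 CPM against 1.9 and 1.4 CPM. The 3 Schwann cell markers, Prx, Ncmap and Pmp2, did not move together. The sum of 3.38 CPM was largely Prx, at up to 2.5 CPM in young injured pools. That of 3.78 CPM was largely Ncmap, at up to 3.67 CPM in middle-aged naïve pools. Prx and Pmp2 were too low to be tested. The part of either cell type in the Igfbp6 values was not tested.

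**Figure D3:**
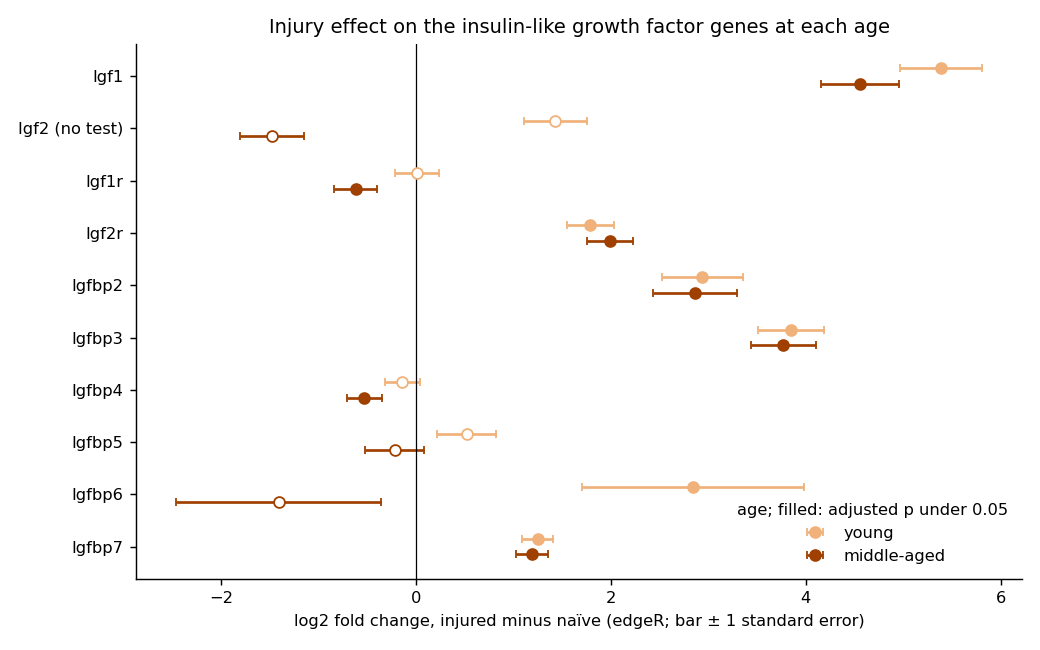
Log2 fold change with injury (horizontal axis, injured minus naïve, edgeR; bars are 1 standard error) of the 10 IGF genes in young and middle-aged mice; filled points have an adjusted p under 0.05, and Igf2 carries no test. Igf1, Igf2r, Igfbp2, Igfbp3 and Igfbp7 lie to the right of 0 at both ages, while Igf2 lies at 1.43 in young and −1.48 in middle-aged mice.

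The make-up of the 6 binding protein transcripts was described per kilobase of exon, with no test. Their sum was 56.2 to 67.2 CPM per kilobase in naïve and 116 to 177 in injured pools. Igfbp4 and Igfbp5 together with Igfbp7 led in naïve tissue, where Igfbp5 made up 23.4 to 44.4%, Igfbp4 20.9 to 28.4% and Igfbp7 25.4 to 35.6% of the sum. Igfbp3 was 4.01 to 9.88% of the sum in naïve pools, 22.6 to 29.5% in young injured and 34.2 to 42.0% in middle-aged injured pools. Igfbp4 was 7.61 to 13.5% in young injured and 5.90 to 8.60% in middle-aged injured pools. Igfbp2 went from 1.68 to 5.41% in naïve to 7.56 to 16.8% in injured pools, and Igfbp5 took 10.3 to 25% in injured pools. The share of Igfbp7, at 25.3 to 35.5% in injured pools, overlapped that in naïve pools.

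**Figure D4:**
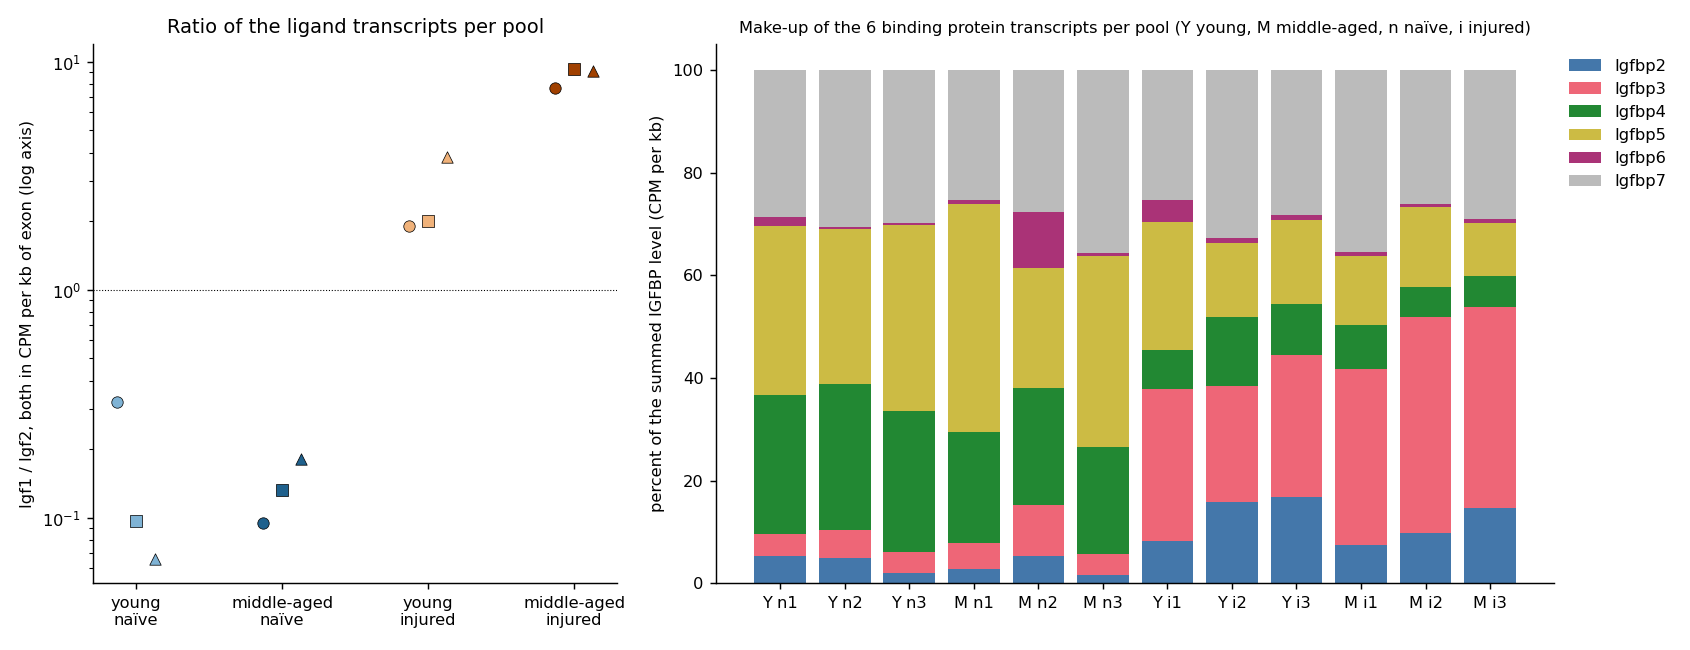
Left, ratio of Igf1 to Igf2 per pool (both in CPM per kilobase of exon, log axis; the dotted line marks equal levels); right, percent of the summed level of the 6 binding protein transcripts per pool (stacked bars, CPM per kilobase). The ratio is below 1 in all naïve and above 1 in all injured pools, and Igfbp3 takes 22.6 to 42.0% of the binding protein sum in injured pools against 4.01 to 9.88% in naïve pools.

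The next question was whether age changed these genes. Among naïve mice 1 of 9 was higher in the middle-aged, Igf1r, which was 2.09-fold higher (log2 fold change 1.06, SE 0.23, edgeR adjusted p = 0.0195), and 0 were lower, where 3.8% of all genes were called, 2.02% higher and 1.78% lower. The call did not hold when only naïve pools were fitted (adjusted p = 0.181), without young naïve replicate 2 (0.0926) or without young naïve replicate 3 (0.0608). With single pools left out, the log2 difference of Igf1r ranged from 0.7 to 1.25. None of the 9 was lower at an unadjusted p under 0.05 (0 genes), and DESeq2 called 0 lower. Naïve pools of the ages did not overlap for Igf1r (higher) and Igfbp4 (lower), as for 7.77% and 9.34% of all genes. Between the same pools 3 of 6 oligodendrocyte markers were lower and 4 of 7 markers of microglia and macrophages higher in the middle-aged, and their part in these age differences was not tested.

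Among injured mice edgeR called 0 of 9 genes higher and 0 lower in the middle-aged, where it called 1.15% of all genes, 0.24% higher and 0.908% lower. At an unadjusted p under 0.05 there was 1 higher, Igf2r (log2 difference 0.56, SE 0.23, adjusted p = 0.379), and 2 lower, Igf1 and Igfbp4. DESeq2 called 0 in both directions. Igf1 was lower in every middle-aged injured pool (211 ± 22.3 CPM) than in every young injured pool (389 ± 21.4 CPM, SD, n = 3), a log2 difference of −0.88 (SE 0.33, edgeR adjusted p = 0.329). Fitted on the injured pools alone, with the spread of these groups only, the difference in Igf1 passed (adjusted p = 0.000969), as did that in Igf2r (adjusted p = 0.0289). With no filter on low counts those in Igf1 (adjusted p = 0.00451) and Igfbp4 (−0.63, SE 0.17, adjusted p = 0.0297) passed. Pools of the injured groups did not overlap for Igf1r and Igf2r (middle-aged higher) and for Igf1 and Igfbp4 (middle-aged lower), a separation that 11.1% of all genes had upward and 12.2% downward. Between these groups 5 of 6 oligodendrocyte markers were lower in the middle-aged, and their part in the age differences, those of Ndn and H19 included, was not tested.

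Whether injury acted differently at the 2 ages was tested for the 9 genes other than Igf2. edgeR called 0 of 9 in either direction (0.139% of all genes were called, 0.0567% higher and 0.0819% lower, that is 40.9% of calls higher, and 25.8% with library totals alone), and DESeq2 called 0. At an unadjusted p under 0.05 there were 0 higher and 1 lower, Igfbp6, whose difference of −4.25 (SE 1.55, adjusted p = 0.358) passed with no filter on low counts (adjusted p = 0.00617) and became 0.02 without the 2 pools that stood apart. For Igf1 the difference was −0.83 (SE 0.53, adjusted p = 0.664), and it was −1.55 without young naïve replicate 1 and −0.35 without middle-aged naïve replicate 2. For Igfbp2, Igfbp3 and Igfbp7 it was between −0.08 and −0.06 with standard errors of 0.23 to 0.59. These errors leave room for differences in either direction.

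Genes that act around the ligands and receptors were taken from lists by known role. Of 58 such genes 53 were tested, and with injury 20 rose and 13 fell in young and 21 rose and 14 fell in middle-aged mice (background 28.3% and 26.3%, and 29.2% and 29.3%). The median log2 fold changes were 0.24 and 0.20. Igfals, which stabilises circulating IGF complexes, and Igf2bp1 had no count in any pool, and Igfbp1, Stc2 and Insrr were too low to be tested.

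Of 7 tested genes that cut binding proteins or inhibit the cutting, 4 rose and 1 fell at each age, with medians of 1.05 and 0.98. For all genes the shares were 28.3% higher and 26.3% lower in young and 29.2% and 29.3% in middle-aged mice. Stc1, which encodes an inhibitor of pappalysins, went from 0.182 to 0.453 CPM in young naïve pools to 1.51 to 2.94 CPM in young injured pools (log2 fold change 2.86, SE 0.57, edgeR adjusted p = 0.000654). In middle-aged mice it went from 0.08 to 0.384 CPM to 2.68 to 6.15 CPM (4.43, SE 0.61, adjusted p = 2.07e-05, or 5.39 without naïve replicate 1). Its naïve counts, 2 to 5 in young and 1 to 4 in middle-aged pools, lay around the floor of 3 counts, so the sizes of both rises are uncertain. The metalloproteases Adam12 (2.03 and 2.65, the latter 3.24 without naïve replicate 3) and Adam9 (1.05 and 1.87) and the serine protease Htra3 (1.78 and 0.98) rose at both ages, and Htra1 fell at both (−0.78 and −0.94). Igfbpl1, a relative of the binding proteins, had no count in the young naïve pools and 1.05 to 1.69 CPM in young injured pools, at least 4.95-fold higher against a floor of 3 counts per library (edgeR adjusted p = 0.000322). In middle-aged mice Igfbpl1 had only 0 to 3 counts in naïve pools, with a median of 0 CPM, and 4 to 8 counts in injured pools. There it rose by 2.41 (SE 0.90, adjusted p = 0.0359), a value that was 5.63 without naïve replicate 3 and a call that ended in 9 of 20 alternatives, for example without naïve replicate 1 (adjusted p = 0.0984), without naïve replicate 2 (0.0823), without injured replicate 2 (0.0944) and without injured replicate 3 (0.0830), or without any 1 of the young injured pools (0.0509 to 0.0549).

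Among 10 tested receptor and adaptor genes 4 rose and 3 fell at each age, with medians of 0.11 and 0.12. Beside them, 28.3% of all genes rose and 26.3% fell in young mice, and 29.2% and 29.3% in middle-aged mice. Among those that rose were Shc1 (log2 fold change 1.71 in young and 1.67 in middle-aged mice), Ptpn1, which encodes a phosphatase that acts on the insulin receptor (1.63 and 2.16), and Grb10 (0.92 and 0.68), whose middle-aged pools overlapped. The latter call ended without naïve replicate 1 (edgeR adjusted p = 0.094) or 3 (0.084) and without injured replicate 1 (0.0545) or 2 (0.213). The falls were in Grb14, an adaptor that inhibits insulin receptor signalling (−1.93 and −2.13), Sos1 (−0.89 at both ages) and Ptpn11 (−0.62 and −0.70). The insulin receptor gene Insr was at 30.3 to 39.2 CPM in young naïve and 30.0 to 37.1 CPM in young injured pools and did not pass (−0.02, SE 0.16, edgeR adjusted p = 0.93).

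In the PI3K, Akt, mTOR and FOXO list 6 of 20 rose and 5 fell in young and 7 rose and 5 fell in middle-aged mice, with medians of 0.05 and 0.03. These counts were near the shares of all genes, 28.3% higher and 26.3% lower in young and 29.2% and 29.3% in middle-aged mice. Eif4ebp1, a brake on translation that mTOR inactivates, rose most, from 0.323 to 0.638 CPM in young naïve to 8.45 to 9.84 CPM in young injured pools (log2 fold change 4.20, SE 0.39, edgeR adjusted p = 5.67e-07) and by 3.79 in middle-aged mice (SE 0.36, adjusted p = 6.35e-07). Akt1 (0.84 and 1.19) and Pik3cb (0.88 and 1.08) rose at both ages. Pik3r1 (−0.77 and −0.83) and Mtor (−0.71 and −0.52) fell at both ages, though the middle-aged call of Mtor ended without naïve replicate 3 (edgeR adjusted p = 0.0732) and with library totals alone (0.0505). In middle-aged mice Tsc1 (−1.13) and Foxo1 (−0.58) fell as well. Pools overlapped for Foxo1, and its call ended in 9 alternatives, among them library totals alone (edgeR adjusted p = 0.0930) and without naïve replicate 3 (−0.31, adjusted p = 0.243), naïve replicate 1 (0.0751), injured replicate 1 (0.126) or 2 (0.128) or any 1 of the young injured pools (0.0513 to 0.0522). Smaller changes were also unsteady: the middle-aged calls of Gsk3b (−0.31) and Rheb (0.40) each ended in 5 alternatives, and the young calls of Foxo3 (0.34), Pdpk1 (−0.46) and Gsk3b (−0.40) in 7, 3 and 2. Without middle-aged naïve replicate 3, or with library totals alone, the middle-aged falls of Mtor, Gsk3b and Foxo1 all lost their calls. The other pools that ended such calls when left out were middle-aged injured replicates 1 and 2 for Gsk3b, middle-aged naïve replicate 1 and injured replicate 2 for Rheb, young naïve replicate 2 and each young injured pool for Foxo3, young naïve replicate 1 and injured replicate 2 for Pdpk1 and young naïve replicate 1 for Gsk3b. Tsc1, whose product restrains mTOR, was also higher in middle-aged than in young naïve pools (38.7 to 41.9 against 21 to 25.3 CPM; log2 difference 0.80, SE 0.15, adjusted p = 0.0099), a call that ended with only the naïve pools fitted (adjusted p = 0.109).

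Of the 5 genes that link growth hormone to Igf1, Stat5a (1.75 and 1.96), Stat5b (0.71 and 0.66) and Socs2 (0.86 and 1.43) rose at both ages, with list medians of 0.71 and 0.66. The share of all genes that rose was 28.3% in young and 29.2% in middle-aged mice. The middle-aged call of Stat5b ended without injured replicate 2 (edgeR adjusted p = 0.0658) and with only the pools compared (0.0736). The receptor gene Ghr (0.17 and −0.08) and Jak2 did not pass. Igf2bp2, which encodes a protein that binds Igf2 mRNA, was at 2.69 to 5.10 CPM in young naïve, 0.864 to 2.31 CPM in middle-aged naïve, 16.1 to 20.2 CPM in young injured and 22.7 to 41.5 CPM in middle-aged injured pools. Its rise was 2.26 on the log2 scale in young (SE 0.31, edgeR adjusted p = 2.67e-05) and 4.36 for the middle-aged (SE 0.35, adjusted p = 1.02e-07), and the difference of 2.10 did not pass (SE 0.46, adjusted p = 0.102). Over the 53 genes edgeR called 0 differences of the injury effect between ages, with 4 higher and 4 lower at an unadjusted p under 0.05, and DESeq2 called 2 higher and 1 lower.

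Imprinted genes of growth were listed because Igf2 is one. Of the 8, 1 rose and 4 fell in young and 1 rose and 5 fell in middle-aged mice, with medians of −0.78 and −0.96. Over all genes 28.3% rose and 26.3% fell in young and 29.2% rose and 29.3% fell in middle-aged mice. The gene that rose was H19, a non-coding RNA expressed from the maternal copy, 72622 bases from Igf2 on chromosome 7 (142575529 to 142578143, minus strand; ENSMUSG00000000031). It was at 0.547, 0.816 and 1.29 CPM in young naïve and 13.7, 15.6 and 14.5 CPM in young injured pools. It had 0 counts in each middle-aged naïve pool, which allows up to 0.24 to 0.315 CPM by the floor of 3 counts per library, and 2.24, 2.24 and 2.59 CPM in middle-aged injured pools. H19 rose in young mice by 4.05 (SE 0.32, edgeR adjusted p = 4.45e-07). Its rise in the middle-aged was at least 8.39-fold against the floor (adjusted p = 1.33e-06). Between ages H19 was lower in the middle-aged, with a log2 difference of −2.63 among injured pools (SE 0.29, edgeR adjusted p = 0.00143). Among naïve pools it was at least 3.15-fold higher in the young (adjusted p = 0.00209). So H19 rose at both ages, whereas the Igf2 pools moved in opposite directions.

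The imprinted genes that fell were led by Cdkn1c, a cell cycle inhibitor (−3.01 and −2.73, the former −1.94 without young naïve replicate 3), Mest (−1.06 and −1.34) and Peg3 (−0.81 and −0.94) at both ages, and Plagl1 in middle-aged mice (−1.67). Ndn, which encodes necdin, also fell with injury, and it was lower in middle-aged than in young injured pools (33.8 to 37.2 against 55.7 to 59.9 CPM; log2 difference −0.71, SE 0.16, edgeR adjusted p = 0.0443). That call ended when any 1 of the injured pools was left out, with adjusted p up to 0.222, and without young naïve replicate 1 (0.0630) or 2 (0.0669). With Ndn and H19, 2 of the 53 listed genes were lower in middle-aged injured mice and 0 higher (3 at an unadjusted p under 0.05, 0 in DESeq2), against 0.908% and 0.24% of all genes. In naïve mice 1 was higher, Tsc1, and 1 lower, H19, against 2.02% and 1.78%, and DESeq2 called 1 and 4.

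The genes whose pattern over the 12 pools was most like that of Igf2 were sought by the root mean square difference of centred log2 CPM among 13085 genes. They were Gpc3 (0.48), which encodes glypican 3, Gjb2 (0.53), which encodes connexin 26, Tmem132c (0.60), Perp (0.68) and Cpxm2 (0.70). Gpc3 was at 3.52 ± 1.33 CPM in young injured and 0.968 ± 0.0247 CPM in middle-aged injured pools, and Gjb2 at 38.1 ± 19.3 and 10.2 ± 2.65 CPM (SD, n = 3). Their naïve means were 2.11 CPM in young and 2.51 CPM in middle-aged mice for Gpc3, and 28.2 and 24.1 CPM for Gjb2. Not all 5 genes had both responses of Igf2. In young mice the means of naïve and injured pools were 6.22 and 6.42 CPM for Perp and 12.4 and 11.4 CPM for Cpxm2. In middle-aged mice those of Tmem132c were 1.65 and 1.64 CPM. No other IGF gene was among the 5, the closest being Igfbp4 (0.83) and Igfbp5 (0.95), and Igf1 was far from Igf2 (2.70). For Igf1 the most alike were Itga5 (0.46), which encodes the fibronectin receptor chain α5, Kif15 (0.56) and Knl1 (0.59), which act in cell division, Fn1 (0.59), which encodes fibronectin, and Lox (0.61), which encodes lysyl oxidase. Of the IGF genes Igfbp3 was closest to Igf1 (0.98), followed by Igfbp2 (1.19). Likeness was computed on the same pools that show the pattern and carries no test.

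Genes that overlap the 10 could share their reads, since the strand setting of the counting is not given in the sources used here. Igf2os, antisense to Igf2 with 98 shared exon bases, had 0 to 2 counts in a pool, and Igf1os, antisense to Igf1, had 0 to 3. Gm49394, a readthrough gene annotated with 3596 exon bases in common with Igf2, was not among the 46078 genes counted. Polr2b shares 85 exon bases with Igfbp7 on the other strand and had 658 to 1062 counts, so a share of either gene's reads at their ends is uncertain. Airn, the antisense transcript over Igf2r known from its imprinting, had 12 to 48 counts and no exon bases in common with it.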

How the data were processed

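White matter was laser-captured from 20 µm cryosections, and RNA of 5 mice was pooled per library and amplified during library building. The authors deposited raw counts of reads per gene from featureCounts, after FastQC 0.11.4 and mapping to GRCm38 with TopHat 2.0.10 and Bowtie 1.1.2. The annotation release and the handling of shared reads are not given in the sources used here. Groups came from the labels, which call the libraries separate pools, so p-values measure the spread between pools.

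Counts were fitted in R 4.3.3 with edgeR 4.0.16 (TMM, filterByExpr, quasi-likelihood test, all 12 pools, 1 coefficient per group). P-values were adjusted by Benjamini-Hochberg over 15866 genes (threshold 0.05). Standard errors were taken from the fold change and its F statistic. Log2 CPM used a prior count of 2. Symbols, positions and exon lengths came from GENCODE M21 on GRCm38 (45143 of 46078 genes, 97.97%), and promoter windows from RefSeq on GRCm38.p6. The floor of 3 counts covers counting error only. The fit was tested on simulated counts.

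Members and lists were chosen with earlier results of these data known. Named were the 10 members, up to 3 highest and 3 lowest called genes of each list per injury comparison, genes called in an age comparison, defining markers, overlapping genes and the 5 genes most like each ligand. Of the named genes, 1 list gene and 1 marker are not reported here. Insr, Ghr, Jak2, Slc6a13 and Ogn and the unsteady calls of the PI3K list were added after their values were seen. Alternatives were DESeq2 1.42.0, 3 other scalings, 2 other filters, fits on only the pools compared, the replicate block and each pool left out.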

Additional observations from a re-analysis of the deposited data

Results flagged for a closer look

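Igf2 met the condition for a closer look because its injury effects pointed in opposite directions at the 2 ages. All 3 young injured pools lay above all 3 young naïve pools, and all 3 middle-aged injured pools lay below all 3 middle-aged naïve pools. The difference of the injury effects, middle-aged minus young, was −2.91 on the log2 scale (SE 0.46). It was not tested, because Igf2 was chosen for this difference.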

How the results depend on the processing

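The injury effects on Igf1, Igf2r, Igfbp2, Igfbp3 and Igfbp7 kept their direction and their side of the threshold at both ages under every alternative run. Igf2 kept the direction of each injury effect, but it was chosen for these directions in the same pools, so this is no test of them. Library totals alone, only the pools compared, and leaving out both pools that stood apart, an alternative chosen after seeing the data, gave 0, 1 and 0 IGF genes called lower with injury in middle-aged mice (2 in the report). For the naïve ages DESeq2 called 1111 of all genes and 5 pathway genes, no filter 1153 genes and 2 IGF genes higher, and only the pools compared 71 genes and 0 IGF genes higher (603 genes and 1 IGF gene in the report). For the injured ages DESeq2 called 458, no filter 437 and only the pools compared 818 genes (182 in the report), with 2 IGF genes lower under no filter and 1 higher and 1 lower with only the pools compared. For the difference between ages in the injury effect DESeq2 called 254 genes and no filter 329 (22 in the report), with 1 IGF gene lower under no filter.

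Some log2 fold changes changed sign, most of them from values near 0 but those of Igfbp6 from larger values. With injury in young mice Igf1r was −0.04 under upper-quartile factors and −0.04 without both pools, and Igfbp4 was 0.06 with library totals. Igfbp7 was −0.03 between the injured ages with library totals. Without both pools the middle-aged injury effect on Igfbp6 was 1.33 (−1.41 with all pools). The naïve age differences of Igf2 and Igfbp6 were then −0.31 and −0.2 (0.17 and 2.53 with all pools). The differences between ages in the injury effect on Igfbp2, Igfbp3 and Igfbp6 were 0.38, 0.73 and 0.02 (−0.08, −0.08 and −4.25 with all pools).

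When single pools were left out, the IGF genes called were 0 to 2 lower with injury in middle-aged mice and 0 to 1 higher between naïve ages. All genes called were 261 to 800 between naïve ages, 45 to 410 between injured ages and 3 to 56 for the difference between ages in the injury effect. Fold changes in young injury ranged from −0.06 to 0.12 for Igf1r and from −0.37 to 0.01 for Igfbp4, and in middle-aged injury from −1.94 to 1.33 for Igfbp6. Between naïve ages the ranges were −0.53 to 0.67 for Igf1, −0.32 to 0.44 for Igf2, −0.86 to 0.11 for Igfbp2, −0.04 to 0.36 for Igfbp5, −0.21 to 3.84 for Igfbp6 and −0.01 to 0.19 for Igfbp7. Between injured ages Igfbp7 ranged from −0.1 to 0.13. The difference in injury effect ranged from −0.15 to 0.38 for Igf2r, −0.43 to 0.54 for Igfbp2, −0.36 to 0.46 for Igfbp3 and −0.2 to 0.04 for Igfbp7. The cause of these changes was not tested.

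Replicate numbers did not pair the pools: of 18 pairs of pools with the same number, 2 had a correlation of deviations above 0.1, and 5 of 12 pools correlated best with their own number. With the replicate block the naïve age difference of Igf1 was 0.01 (−0.05 without it), and the calls of Igfbp6 in young (edgeR adjusted p = 0.0542) and Igfbpl1 in middle-aged injury (0.0569) were lost. Precision was limited by 3 pools per group and, for Igfbp6, by counts as low as 2.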
